A study of Mus musculus with 12 samples.

Results

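Transporters that carry organic anions and drugs into hepatocytes and out of them again were examined in mouse liver, together with the ABC pumps of the bile canaliculus. The group consisted of 9 genes chosen by symbol, namely Slco1a1, Slco1a4, Slco1b2, Slco2b1, Slc22a7, Abcc2, Abcc3, Abcb1a and Abcb4, out of 48795 genes in the table. Each symbol matched 1 gene, and all 9 were expressed highly enough to be tested. None of the 9 is a carrier dedicated to organic cations, so the organic cation transporters Slc22a3 and Slc47a1 are described from a wider list of hepatobiliary transporters.

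Hepatocytes take up bile acids, bilirubin, steroid conjugates and many drugs from sinusoidal blood through organic anion transporting polypeptides (OATPs), which are encoded by the Slco genes, and through organic anion transporters such as OAT2, the product of Slc22a7. Conjugated products leave either across the canalicular membrane into bile, through ABC pumps such as MRP2 (Abcc2), or back into blood across the basolateral membrane through MRP3 (Abcc3). P-glycoprotein (Abcb1a) exports hydrophobic and cationic drugs, and MDR2 (Abcb4) moves phosphatidylcholine to the outer leaflet of the canalicular membrane, where bile salts extract it into bile.

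The livers came from female littermates aged 4 months and kept on normal chow, bred from Nts+/- parents. The mice carried either 2 intact copies of neurotensin (Nts+/+) or a deletion in the whole body (Nts-/-), and were either fed or fasted for 22 h. There were 3 livers in each of the 4 groups and 1 RNA-seq library from each liver. The fed mice labelled Nts+/+ were 254, 257 and 323, and the fasted ones were 265, 282 and 322. The fed mice labelled Nts-/- were 277, 303 and 319, and the fasted ones were 284, 290 and 295. Levels below are CPM, read counts scaled to library size by the TMM method, and fold changes with their standard errors (SE), 95% intervals and Benjamini-Hochberg adjusted p-values come from 1 edgeR quasi-likelihood fit to all 12 mice. A gene was called at an adjusted p under 0.05 over the 13812 genes tested.

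Libraries held between 21999647 and 45273069 counts. Reads from Nts were found only in the libraries labelled Nts-/-, although these mice are labelled as carrying the deletion. All 6 libraries labelled Nts+/+ had 0 Nts counts, which allows up to 3 counts in each. The 6 labelled Nts-/- had 46, 40, 15, 12, 4 and 18. The table counts reads per gene, and the part of Nts from which these reads came was not tested. The genotypes are given throughout as labelled, and the direction of every genotype difference depends on those labels. The liver markers Alb, Apoa1, Ttr, Serpina1c, Cps1 and Hnf4a together made up 108200 to 138600 CPM, and the ranges of fed and fasted livers overlapped. Most of that sum was Alb, so it says little of the others. In the mean fasting comparison 2 of these 6 rose, Apoa1 (log2 0.86, adjusted p = 0.000784) and Cps1 (log2 0.69, adjusted p = 0.00962), 2 fell, Ttr (log2 -0.76, adjusted p = 0.000395) and Serpina1c (log2 -0.87, adjusted p = 0.000119), and Alb (log2 0.06, adjusted p = 0.711) and Hnf4a (log2 0.24, adjusted p = 0.162) did not pass the test. Their part in the differences of the transporters was not tested. In that comparison 16.0% of all tested genes were called higher and 16.8% lower. These are whole-liver libraries, in which fewer cells of a type cannot be told apart from less RNA per cell.

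The members lie in a few compact places of the genome (GRCm38). Slco1b2, at chr6:141629518-141686646, Slco1a4, at chr6:141805440-141856199, and Slco1a1, at chr6:141907282-141946962, are neighbors in 1 OATP cluster on chromosome 6, and Abcb1a, at chr5:8660077-8748575, and Abcb4, at chr5:8893717-8959231, flank Abcb1b on chromosome 5. The 3 OATP neighbors gave different results in the fasting comparison, and Abcb4 gave the smallest p of all members, so the 250 bases before the RefSeq start of these 4 genes (GRCm38.p6) are shown here 5′ to 3′ along the strand of the gene. Capitals mark matches on either strand to any of 7 short motifs, AGGTCA (the hexamer bound by many nuclear receptors), AGTTCA (a variant of it found in elements for the receptors CAR and PXR), TGACNNNGC (the core of the antioxidant response element), TTCNNNGAA (STAT), TGTTTAC (forkhead), CACGTG (E-box) and GTTAAT (HNF1).
Slco1a1, chr6:141946963-141947212, minus strand: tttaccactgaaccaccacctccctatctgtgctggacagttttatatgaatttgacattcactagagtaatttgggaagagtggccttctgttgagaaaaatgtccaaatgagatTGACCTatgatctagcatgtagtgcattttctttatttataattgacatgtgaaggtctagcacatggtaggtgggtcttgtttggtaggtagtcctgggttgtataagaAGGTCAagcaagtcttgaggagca
Slco1a4, chr6:141856221-141856470, minus strand: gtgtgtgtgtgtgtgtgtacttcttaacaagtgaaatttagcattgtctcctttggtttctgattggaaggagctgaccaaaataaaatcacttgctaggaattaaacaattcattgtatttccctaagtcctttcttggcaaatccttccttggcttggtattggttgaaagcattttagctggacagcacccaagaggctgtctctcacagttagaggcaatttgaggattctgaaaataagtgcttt
Slco1b2, chr6:141629268-141629517, plus strand: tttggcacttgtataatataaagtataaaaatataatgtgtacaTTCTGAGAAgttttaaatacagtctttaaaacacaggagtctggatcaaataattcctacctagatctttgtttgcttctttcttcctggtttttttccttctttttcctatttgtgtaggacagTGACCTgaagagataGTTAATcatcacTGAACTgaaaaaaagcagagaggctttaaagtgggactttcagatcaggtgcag
Abcb4, chr5:8893471-8893720, plus strand: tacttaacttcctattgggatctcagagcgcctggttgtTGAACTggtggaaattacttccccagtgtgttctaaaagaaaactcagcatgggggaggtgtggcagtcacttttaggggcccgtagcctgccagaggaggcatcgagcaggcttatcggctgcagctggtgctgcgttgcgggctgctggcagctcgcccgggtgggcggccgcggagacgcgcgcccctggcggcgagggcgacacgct

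The Slco1a1 window held AGGTCA at both places marked, 134 and 24 bases before the start. The Slco1a4 window held no match to any of the 7 motifs, while that of Slco1b2 held 4. From 5′ to 3′ these were TTCNNNGAA, then AGGTCA at 81 bases before the start, the HNF1 motif at 66 and AGTTCA at 54. Abcb4 held AGTTCA, 211 bases before its start. No marked matches overlapped one another. Among 32851 windows of the same length, AGGTCA occurred in 14.0%, AGTTCA in 11.8%, TTCNNNGAA in 7.02% and GTTAAT in 6.43%, so that a match alone is common. Of the other members with windows (Slco2b1, Abcc2 and Abcb1a), Abcc2 held AGGTCA and TGACNNNGC, the second of which occurred in 10.2% of windows. Slco2b1 has 3 RefSeq starts, of which the second held AGTTCA and the third TTCNNNGAA. The Abcb1a window held AGTTCA and TGTTTAC, but its RefSeq start lies 92986 bases before the start of the gene in the table, so this window is not next to the gene as counted. TGTTTAC occurred in 3.17% of windows. CACGTG was found in none of these windows and in 6.02% of all. Windows were found for 7 of the 9 members, and those for Slc22a7 and Abcc3 were not analysed here.

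Fasting changed the members in both directions. In livers labelled Nts+/+ and in livers labelled Nts-/- alike, Slco1a4, Abcc3 and Abcb4 rose, and in the mean of the 2 fasting differences Abcc2 also rose while Slco1a1 fell. Thus 3 of 9 members were called in the fasting comparison of livers labelled Nts+/+, where 18.1% of all tested genes were called, and 3 of 9 in livers labelled Nts-/-, where the background was 16.8%. Averaged over the genotypes, 5 of 9 were called, with 4 higher and 1 lower, against 32.8% of all genes called (16.0% higher and 16.8% lower). The median fasting difference of the 9 members in this mean was 0.19 on the log2 scale, beside -0.0071 for all genes tested. In livers labelled Nts+/+ the 3 fasted livers lay wholly above the 3 fed livers for 4 of 9 members, which held for 18.1% of all genes. In livers labelled Nts-/- they lay above for 3 of 9 and below for 1 of 9, beside 17.1% and 18.1% of all genes. With so few members, these counts describe the genes named and set nothing apart from the background.

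**Figure D1:**
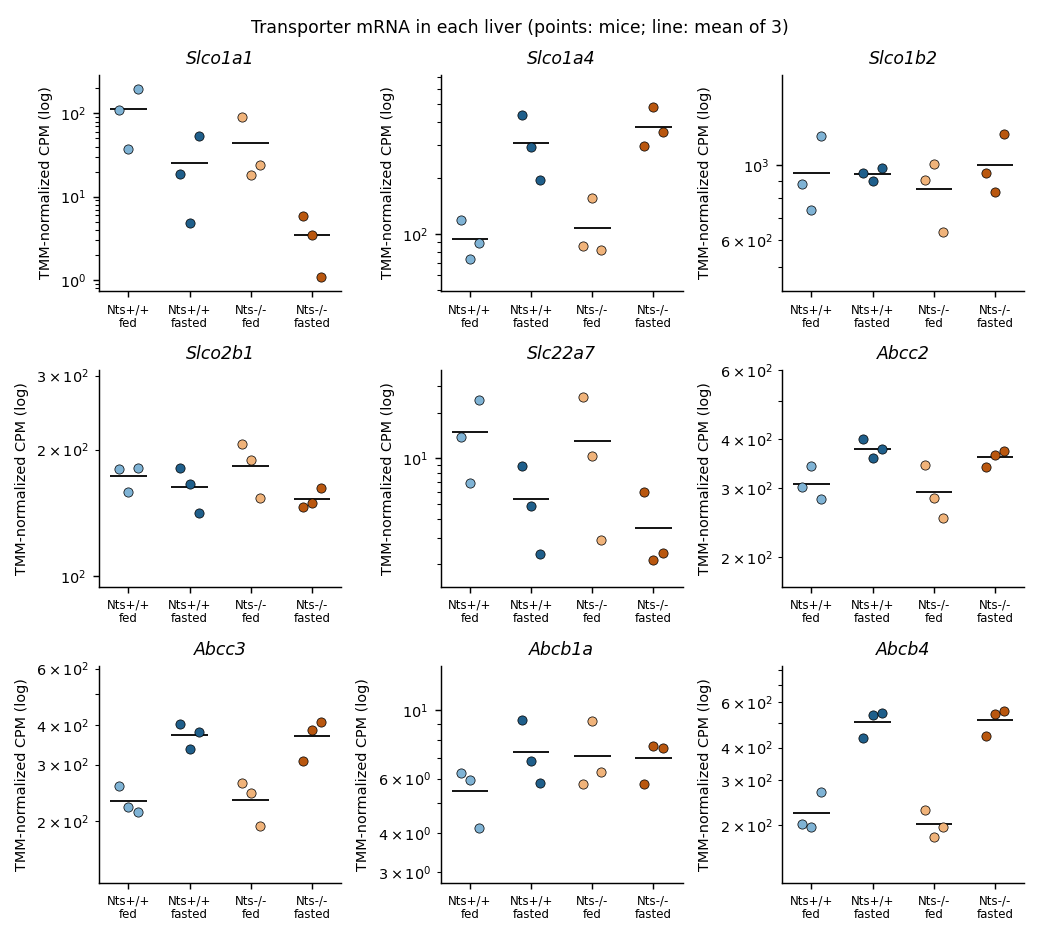
TMM-normalized CPM of each member on a log axis, with 1 point per liver and a line at the mean of the 3 livers of each group. The fasted livers lie above all fed livers for Slco1a4, Abcc3 and Abcb4, and the points of Slco1a1 and Slc22a7 spread most within groups.

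Slco1a4 encodes OATP1A4, a sinusoidal uptake carrier of broad specificity that accepts bile acids, steroid conjugates and cardiac glycosides. It stood at 119, 73.4 and 88.9 CPM in the fed livers labelled Nts+/+ and at 434, 295 and 195 CPM in the fasted ones. In livers labelled Nts-/-, it stood at 85.9, 155 and 81.7 CPM when fed and at 297, 479 and 353 CPM when fasted. All 6 fasted livers were above all 6 fed livers, which held in this direction for 8.05% of tested genes. The rise was 3.28-fold in livers labelled Nts+/+ (log2 1.71, SE 0.34, adjusted p = 0.0064) and 3.50-fold in livers labelled Nts-/- (log2 1.81, SE 0.34, adjusted p = 0.00497). These 2 rises differed by 0.09 on the log2 scale, with an interval from -0.93 to 1.12 that spans differences in either direction.

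Slco1a1, the next gene of the cluster, moved the other way. Its product OATP1A1 is a sinusoidal carrier with substrates much like those of OATP1A4, and it is known for higher expression in male than in female mouse liver. Fed livers labelled Nts+/+ held 109.8, 37.1 and 196 CPM, and the fasted ones held 18.5, 4.86 and 53.3 CPM, so that the fasted liver of mouse 322 exceeded the fed liver of mouse 257. Fed livers labelled Nts-/- held 91.7, 18.2 and 24.2 CPM, and the fasted ones held 5.82, 3.42 and 1.09 CPM without overlap. Averaged over the genotypes, Slco1a1 fell by 2.96 on the log2 scale (SE 0.79, interval -4.76 to -1.15, adjusted p = 0.0207), a level 7.76-fold lower in fasted livers. Neither genotype passed alone, at log2 -2.15 (SE 1.05, adjusted p = 0.198) in livers labelled Nts+/+ and log2 -3.76 (SE 1.18, adjusted p = 0.0626) in livers labelled Nts-/-. With 1 mouse left out, the difference ran from -3.30 (without mouse 322) to -1.51 (without mouse 323) in the former, with adjusted p from 0.111 to 0.397, and from -4.38 (without mouse 284) to -2.68 (without mouse 277) in the latter, with adjusted p from 0.0661 to 0.194. The averaged call was narrowly lost without mouse 265 (log2 -2.86, adjusted p = 0.0506) or without mouse 290 (log2 -2.96, adjusted p = 0.0518).

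The spread of Slco1a1 between livers of the same group was among the widest in the data. The highest of the 3 livers of a group held 5.27 times the lowest in fed and 11.0 times the lowest in fasted livers labelled Nts+/+, and 5.05 and 5.35 times the lowest in fed and fasted livers labelled Nts-/-. The standard deviation within groups was 1.36 on the log2 scale, larger than that of 99.1% of tested genes, for which the median was 0.24. Slc22a7 came next among the members at 1.09, above 98.2% of tested genes, whereas Abcc2 and Slco2b1 varied little, at 0.14 and 0.16.

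Slco1b2, the remaining expressed gene of the cluster, encodes OATP1B2, the rodent relative of human OATP1B1 and OATP1B3 and a major route for bilirubin and bile acids. It stood at 878, 739.9 and 1221 CPM in the fed livers labelled Nts+/+ and at 948, 899 and 980.1 CPM in the fasted ones. In livers labelled Nts-/-, the values were 904, 1006 and 637 CPM when fed and 947, 831 and 1232 CPM when fasted. Fed and fasted livers overlapped in both genotypes, and the averaged difference was 0.12 on the log2 scale (SE 0.15, adjusted p = 0.586), with an interval from -0.21 to 0.44. Slco2b1, which encodes the sinusoidal carrier OATP2B1, ranged from 154 to 206 CPM in fed and from 141 to 181 CPM in fasted livers, and its averaged difference of -0.18 (SE 0.10, adjusted p = 0.186) had an interval from -0.39 to 0.03. Neighbors of the cluster were hardly detected, since Slco1c1 had between 0 and 4 counts and Slco1a6 and Slco1a5 had 0 counts in all 12 libraries.

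Per kilobase of the longest transcript, Slco1b2 was the most abundant member in every group, at 208 ± 54.5 CPM per kb (SD, n = 3) in fed and 207 ± 8.94 in fasted livers labelled Nts+/+, and at 187 ± 41.9 and 221 ± 45.4 in those labelled Nts-/-. In the fed livers labelled Nts+/+ it was followed by Abcc3 at 43.9 ± 4.34, Abcc2 at 38.4 ± 3.76, Slco2b1 at 33.4 ± 2.43, Abcb4 at 32.6 ± 5.83, Slco1a1 at 28.1 ± 19.6 and Slco1a4 at 23.6 ± 5.86 CPM per kb. Adjacent means from Abcc3 to Slco1a4 differed by less than the sum of their SDs, and Slc22a7 at 7.22 ± 4.21 and Abcb1a at 1.06 ± 0.22 stood lower by more than that. After fasting, Slco1a4 at 77.4 ± 30.1, Abcb4 at 74.1 ± 8.58 and Abcc3 at 70.9 ± 6.48 took the places after Slco1b2 and did not differ from one another beyond their spread, followed by Abcc2 at 47.2 ± 2.63 and Slco2b1 at 31.4 ± 3.87. Slco1a1 then held 6.30 ± 6.16, Slc22a7 held 2.58 ± 1.60 and Abcb1a held 1.41 ± 0.34 CPM per kb. The fed livers labelled Nts-/- followed the same order except that Slco1a4, at 27.0 ± 10.4, stood above Slco1a1, at 11.0 ± 10.1. In the fasted livers labelled Nts-/-, Slco1a4 at 94.6 ± 23.5, Abcb4 at 75.2 ± 9.00 and Abcc3 at 70.1 ± 10.0 again came next after Slco1b2, and Slco1a1 came last, at 0.848 ± 0.583 beside 1.35 ± 0.20 for Abcb1a.

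The makeup of OATP mRNA differed between the fed and the fasted livers on this length-scaled measure. The ratio of Slco1a4 to Slco1a1 ran from 0.463 to 8.71 in the fed livers and from 3.74 to 332 in the fasted livers, so that a single fasted liver, mouse 322, lay inside the fed range. Slco1b2 made up between 54.9% and 73.7% of the sum of the 4 OATP transcripts in every liver. Slco1a4 made up 8.28% ± 2.28 of the sum in fed and 23.6% ± 7.25 in fasted livers labelled Nts+/+, and 10.4% ± 2.66 and 27.6% ± 7.47 in those labelled Nts-/- (SD, n = 3), and Slco1a1 made up 8.84% ± 4.41 and 4.17% ± 3.40 in the fed livers and 1.99% ± 2.05 and 0.260% ± 0.195 in the fasted ones. These values depend on the length used. With the length of all merged exons, the ratio of Slco1a4 to Slco1a1 ran from 0.282 to 5.30 in fed and from 2.27 to 202 in fasted livers, and Slco1a4 made up 3.92% to 8.76% of the sum in fed and 11.0% to 26.8% in fasted livers, against 5.97% to 12.9% and 16.1% to 36.2% with the longest transcript. The sum itself was 293 ± 76.9 and 322 ± 30.0 CPM per kb in fed and fasted livers labelled Nts+/+, and 260.1 ± 56.0 and 346 ± 40.9 in those labelled Nts-/-, ranges that overlapped for the former and not for the latter.

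**Figure D2:**
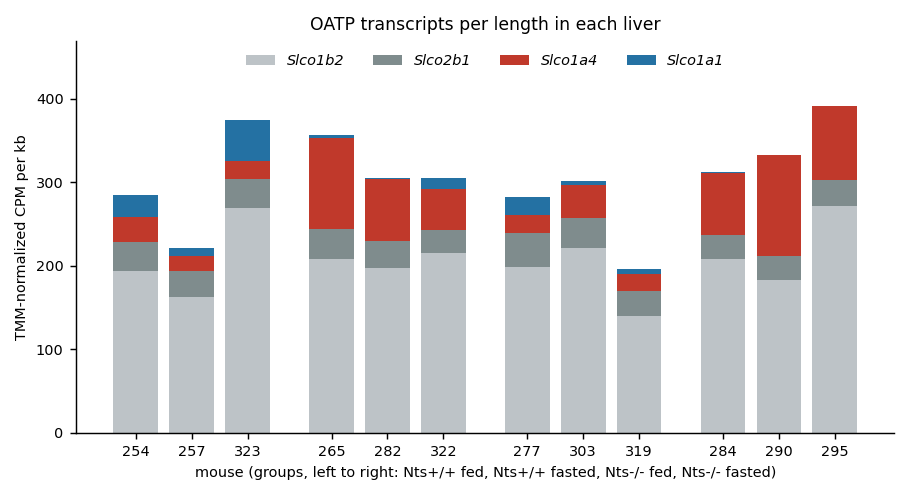
Stacked levels of the 4 OATP transcripts in each liver, in TMM-normalized CPM per kb of the longest transcript, with the mouse number below each bar and the 4 groups set apart. Slco1b2 is the largest share in all 12 livers, and the Slco1a4 share is larger in the fasted livers than in the fed livers.

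Slc22a7 encodes OAT2, a sinusoidal carrier of small organic anions. It stood at 13.9, 6.88 and 24.3 CPM in the fed livers labelled Nts+/+ and at 8.92, 4.86 and 2.33 CPM in the fasted ones. In livers labelled Nts-/-, it stood at 25.5, 10.4 and 2.90 CPM when fed and at 5.96, 2.12 and 2.39 CPM when fasted. Fed and fasted livers overlapped in both genotypes, in those labelled Nts-/- through the low fed liver of mouse 319. The averaged difference was -1.72 on the log2 scale (SE 0.60, interval -3.07 to -0.36), just short of the threshold at an adjusted p of 0.0559. With 1 mouse left out, the adjusted p of this averaged difference ran from 0.0193 (without mouse 319, log2 -1.95) to 0.128. In 11 of these 12 fits Slc22a7 stayed short of the threshold.

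Among the efflux pumps, Abcb4 rose most. Fed livers labelled Nts+/+ held 202, 196 and 268 CPM and fasted ones 438, 533 and 544 CPM. Fed livers labelled Nts-/- held 228, 179 and 196 CPM and fasted ones 442, 539 and 556 CPM. Every fasted liver was above every fed liver, and livers of the 2 genotypes lay close together. The rise was 2.27-fold (log2 1.18, SE 0.16, adjusted p = 0.000436) in livers labelled Nts+/+ and 2.55-fold (log2 1.35, SE 0.16, adjusted p = 0.000144) in livers labelled Nts-/-. Averaged over the genotypes it was 2.41-fold (adjusted p = 4.42e-06), and Abcb4 ranked 110 by p among the 13812 genes tested.

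Abcc3, the basolateral pump MRP3 for glucuronide and bile acid conjugates, rose less but as evenly. It stood at 256, 222 and 214 CPM in the fed livers labelled Nts+/+ and at 403, 336 and 379 CPM in the fasted ones. In livers labelled Nts-/-, it stood at 262, 245 and 192 CPM when fed and at 309, 386 and 409 CPM when fasted. All fasted livers were again above all fed livers. The rise was 1.62-fold (log2 0.69, SE 0.15, adjusted p = 0.00817) in livers labelled Nts+/+, 1.58-fold (log2 0.66, SE 0.15, adjusted p = 0.0108) in livers labelled Nts-/-, and 1.60-fold in the mean (adjusted p = 0.000426).

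Abcc2, the canalicular conjugate pump MRP2, changed little. Its values were 303, 341 and 281 CPM in fed and 400.5, 358 and 378 CPM in fasted livers labelled Nts+/+, and 345, 283 and 252 CPM in fed and 341, 366 and 373 CPM in fasted livers labelled Nts-/-. The fed and fasted groups did not overlap in the former and overlapped in the latter through mouse 277. The averaged rise of 1.23-fold (log2 0.30, SE 0.097, adjusted p = 0.0310) passed the threshold, while neither genotype did alone (adjusted p = 0.151 and 0.157). Leaving out any 1 of 7 mice (254, 323, 265, 303, 319, 290 or 295) took the averaged adjusted p above the threshold, to between 0.0527 and 0.0628, with differences of 0.25 to 0.29 on the log2 scale.

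Abcb1a, the drug exporter of the group, had few reads, at 94 to 319 counts per library. It ranged from 4.17 to 9.23 CPM in fed and from 5.77 to 9.25 CPM in fasted livers. Its averaged difference was 0.19 on the log2 scale (SE 0.16, adjusted p = 0.394), with an interval from -0.16 to 0.55. The neighboring paralog Abcb1b had 9 to 26 counts per library and an averaged difference of -0.29 (SE 0.31, adjusted p = 0.507). The split of reads that fit several genes is an estimate. The deposited counts held fractions in all 12 libraries for Abcb1a, Slco1a1, Slco1a4 and Slco2b1 and in 11 for Abcb4. They held fractions in 0 for Slco1b2, Slc22a7, Abcc2 and Abcc3. Which genes shared the divided reads was not tested. Rounding moved no member by more than 0.398%, and annotated genes that overlap a member held at most 0.132% of its counts.

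**Figure D3:**
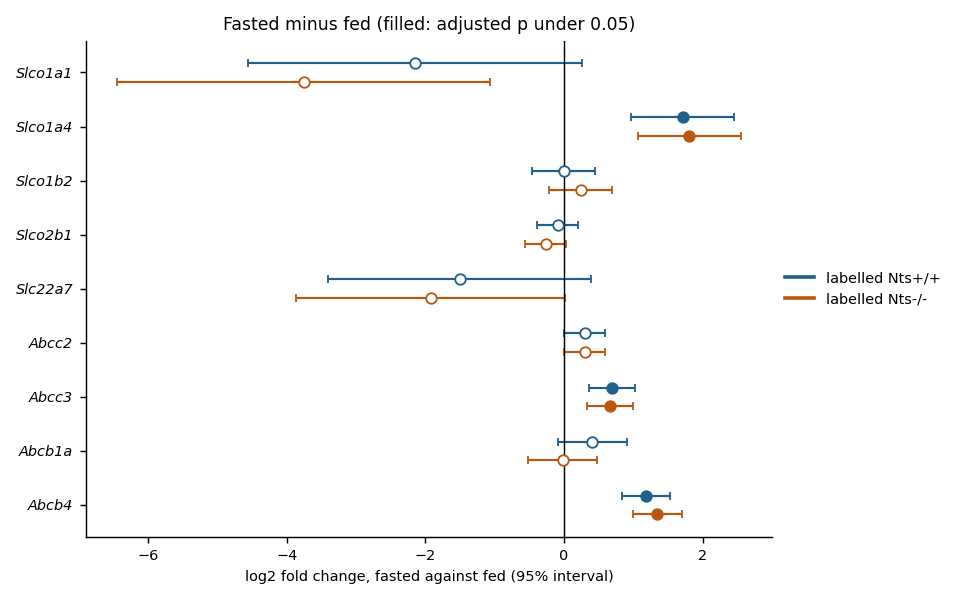
Log2 fold change of each member between fasted and fed livers, with 95% intervals, for livers labelled Nts+/+ and Nts-/-, where filled points passed an adjusted p of 0.05. Slco1a4, Abcc3 and Abcb4 lie to the right of 0 in both genotypes, and the intervals of Slco1a1 and Slc22a7 are the widest.

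No member passed the test for a genotype difference in fed livers, in fasted livers or in their mean, nor for a genotype difference in the response to fasting. The edgeR test called 0 genes of all 13812 in each of these 4 comparisons (0.0% of those tested). At an unadjusted p under 0.05 it gave 876, 685, 859 and 663 genes, of which 0, 1, 1 and 0 were members, and DESeq2 called 8, 4, 16 and 3 genes, none of them members. The member under the unadjusted threshold was Slco1a1. It was 4.44-fold lower in livers labelled Nts-/- in the mean over feeding (log2 -2.15, SE 0.77, interval -3.91 to -0.39, adjusted p = 0.760), with log2 -1.35 (SE 1.02) in fed and log2 -2.95 (SE 1.15, adjusted p = 0.917) in fasted livers. With 1 mouse left out, the log2 difference ran from -2.43 (without mouse 277) to -0.71 (without mouse 323) in fed livers and from -3.59 (without mouse 284) to -1.80 (without mouse 322) in fasted livers, with adjusted p of at least 0.762 and 0.875. The fed and fasted groups both overlapped between the genotypes, in fasted livers through mouse 282 at 4.86 CPM and mouse 284 at 5.82 CPM.

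The intervals show which genotype differences in the mean over feeding these 12 livers leave possible. Those within a feeding state and for the fasting response were wider. For Abcc2, Abcc3, Abcb4 and Slco2b1, the mean genotype difference was bounded between -0.30 and 0.23 on the log2 scale. For Slco1b2 the interval ran from -0.36 to 0.29, for Abcb1a from -0.19 to 0.51 and for Slco1a4 from -0.27 to 0.76. Slc22a7, with an interval from -1.74 to 0.93, and Slco1a1 were determined least. The smallest difference in this mean was that of Abcc3, at -0.0014 on the log2 scale with an interval from -0.24 to 0.23. The genotype difference in the fasting response was -1.61 for Slco1a1, with an interval from -5.04 to 1.82. For Abcb4 it was 0.16, with an interval from -0.32 to 0.65.

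**Figure D4:**
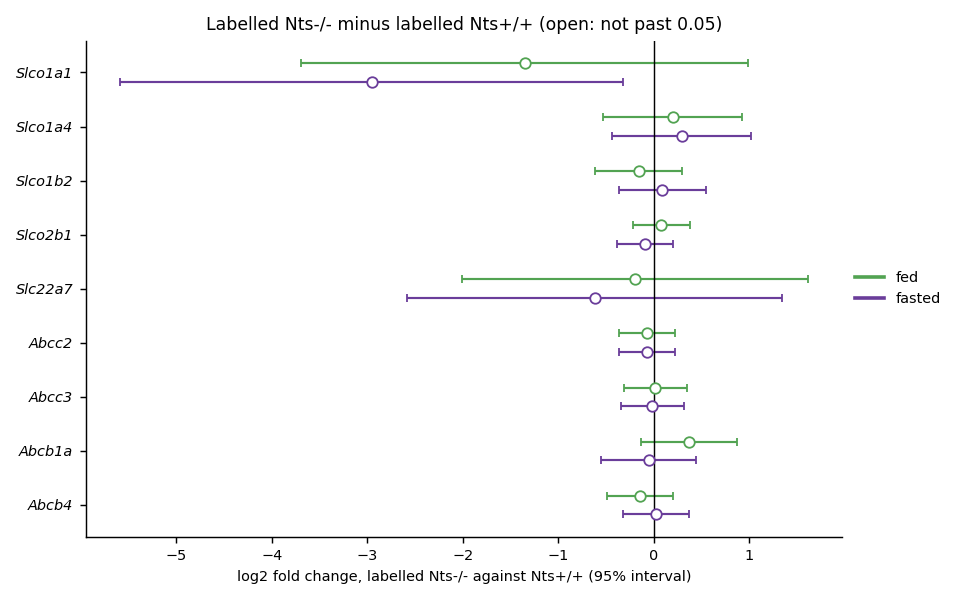
Log2 fold change of each member between livers labelled Nts-/- and Nts+/+, with 95% intervals, in fed and in fasted livers. All points are open because no member passed an adjusted p of 0.05, and the interval of Slco1a1 in fasted livers, from -5.59 to -0.32, is the only interval that leaves out 0.

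Other transporters of the hepatobiliary route also moved both ways. Of 34 genes on a list that excluded the members, 29 were tested, and 5 rose, 9 fell and 15 did not pass in the mean fasting comparison, with a median of -0.0078 beside -0.0071 for all genes. The share called was 48.3%, against 32.8% of all tested genes. Among those that rose were Slc22a5, the carnitine transporter OCTN2 (log2 2.10, adjusted p = 3.14e-05), Slc22a3, the organic cation transporter OCT3 (log2 1.89, adjusted p = 0.000922), the drug and urate pump Abcg2 (log2 0.48, adjusted p = 0.00152) and the sterol exporter subunit Abcg5 (log2 0.74, adjusted p = 0.00168). Those that fell included Abcb11, the canalicular bile salt export pump, which ranged from 613 to 784 CPM in fed and from 185 to 326 CPM in fasted livers (log2 -1.52, adjusted p = 4.42e-06), Slc22a30 (log2 -1.90, adjusted p = 4.96e-08), Abcc6 (log2 -0.73, adjusted p = 2.37e-05) and Slc22a27 (log2 -1.22, adjusted p = 3.42e-05). Abcb11 and Abcb4, whose products pump bile salts and phospholipid at the same membrane, thus moved in opposite directions in both genotypes. The canalicular organic cation exporter MATE1 (Slc47a1) gave log2 -0.02 (adjusted p = 0.873), and the sodium-dependent bile acid uptake carrier Slc10a1 gave log2 0.39 (adjusted p = 0.0888).

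Nuclear receptors, other transcription factors and membrane scaffolds that are known to act on these transporters were listed separately. Of 27 symbols, 25 were tested, and 3 rose, 7 fell and 15 did not pass, with a median of -0.03. The share called was 40.0%, near the 32.8% of all tested genes. The 3 that rose were Nr1i3, the xenobiotic receptor CAR (log2 1.08, adjusted p = 7.36e-06), Ppara, the fatty acid receptor of the fasting response (log2 0.75, adjusted p = 0.00207), and Nr1h4, the bile acid receptor FXR (log2 0.45, adjusted p = 0.0081). Nr1i3 ranged from 140 to 191 CPM in fed and from 219 to 230 CPM in fasted livers labelled Nts+/+. In livers labelled Nts-/- it ranged from 78.9 to 93.4 and from 236 to 307 CPM, so its mean covers unlike rises. The edgeR test called no gene for a genotype difference in the fasting response. The growth hormone receptor Ghr (log2 -0.85, adjusted p = 5.21e-05) and its signal transducer Stat5a (log2 -0.53, adjusted p = 0.00343) fell, as did the scaffolds Slc9a3r1 (log2 -0.75, adjusted p = 0.000479) and Pdzk1 (log2 -0.51, adjusted p = 0.000872), of which Pdzk1 is known to hold OATP1A1 in the membrane. The xenobiotic receptor PXR (Nr1i2) gave log2 0.15 (adjusted p = 0.471) and the oxidative stress factor Nfe2l2 gave log2 0.07 (adjusted p = 0.571).

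**Figure D5:**
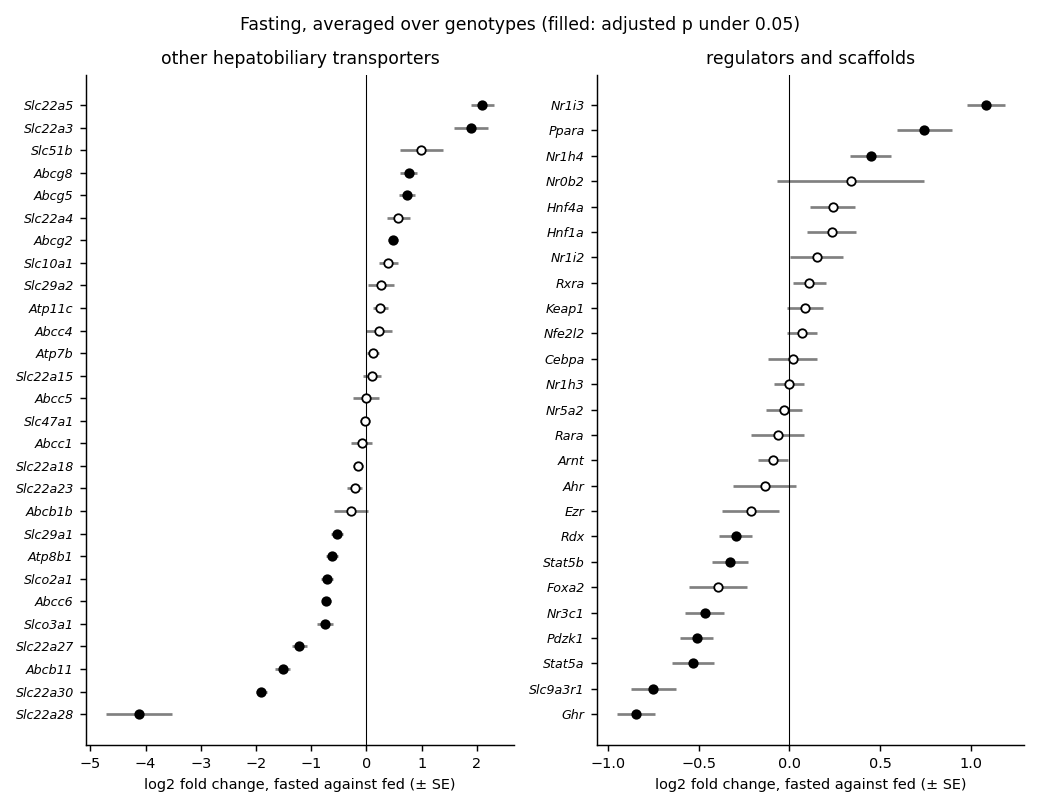
Mean log2 fold change between fasted and fed livers over both genotypes, with its SE, for tested genes of the 2 lists, where filled points passed an adjusted p of 0.05. Among the other transporters 5 filled points lie right of 0 and 9 left of it, and among the regulators and scaffolds 3 lie right and 7 left.

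The listed target genes belong to several receptors and pathways, so their counts bear on no single receptor. Of 20 such genes, all tested, 7 rose, 6 fell and 7 did not pass (65.0% called, against 32.8% of all tested genes). Their median was -0.29, with 0.045 in livers labelled Nts+/+ and -0.39 in livers labelled Nts-/-. Genes that rose included the PPARα targets Cyp4a14 (log2 3.50) and Cyp4a10 (log2 3.63), the P450 reductase Por (log2 1.40) and the antioxidant enzyme Srxn1 (log2 1.03). Those that fell included Cyp2c55 (log2 -2.50), Cyp1a2 (log2 -1.28), Gstm3 (log2 -2.63) and Cyp7b1, a hydroxylase of bile acid synthesis (log2 -0.89). Cyp2b10, the best known CAR target, gave log2 -0.03 (adjusted p = 0.973), and Cyp7a1, the rate-limiting enzyme of bile acid synthesis, gave log2 -0.79 (adjusted p = 0.449).

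Since Slco1a1 is known as a male-predominant gene, lists of sex-biased liver genes were set beside it. Of 8 male-predominant genes, 0 rose and 3 fell in the mean fasting comparison (Nudt7, Hsd3b5 and Cyp7b1), with a median of -0.32, and of 9 female-predominant genes 1 rose (Cyp17a1) and 0 fell, with a median of 0.58. Among all tested genes 16.0% were called higher and 16.8% lower. The male-predominant median was -0.48 in livers labelled Nts+/+ and -0.045 in those labelled Nts-/-. The female-predominant median was 0.0092 and 1.08, so neither averaged median was shared by both genotypes. The Y-linked genes Ddx3y, Uty, Kdm5d and Eif2s3y had 0 counts in every library, and Xist had between 1726 and 7038 counts.

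The genes whose levels followed the most variable members most closely over the 12 livers are given as a description, since fed and fasted livers both enter and the coefficients hold the difference between them. For Slco1a1 they were C8a and C8b, which encode chains of complement component 8, and the carboxylesterase Ces3a. For Slc22a7 they were Gm8941, Cep57l1 and the carboxylesterase Ces3b, and for Slco1a4 they were Oat, Dlst and Atad3a, which encode mitochondrial proteins. Pearson's r of log2 CPM was 0.955, 0.943 and 0.917 for the first 3, 0.927, 0.910 and 0.909 for the next 3, and 0.983, 0.977 and 0.976 for the last 3.

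Markers of other cells were examined in the mean fasting comparison, where 16.0% of all tested genes were called higher and 16.8% lower. Of 6 stellate cell markers 4 fell and 0 rose, with a median of -0.65 on the log2 scale. Their sum was 188 to 265 CPM in fed and 184 to 209 CPM in fasted livers. Most of that sum was Dcn, at 123 to 172 CPM in fed and 137 to 153 CPM in fasted livers, so it says little of the others. Of 7 sinusoidal endothelial markers 3 fell and 1 rose, with sums of 148.0 to 210.1 and 122 to 148 CPM. Of 6 cholangiocyte markers 4 were tested and 1 fell, with sums of 33.5 to 49.9 and 13.8 to 29.7 CPM. Of 6 Kupffer cell markers 1 fell, with sums of 250.3 to 483 and 201 to 404 CPM. Their median fasting difference was -0.72 on the log2 scale in livers labelled Nts+/+ and 0.11 in those labelled Nts-/-. The averaged count thus covers unlike values, although 0 of them were called for a genotype difference in the fasting response. The highest fasted sum was that of mouse 290, with Marco at 104 CPM against 3.69 to 38.0 CPM in the other livers. Of 6 lymphocyte markers none passed, with sums of 3.76 to 6.53 and 4.03 to 7.32 CPM. Of 5 erythroid markers 1 of 4 tested fell, with sums of 173 to 442 and 167 to 437 CPM. The part of these cells in the members' differences was not tested.

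Lists for tissues that could be dissected with liver gave the following in the mean fasting comparison, against the same background. Of 10 intestinal markers 3 were tested and all 3 rose, with a sum of 168 to 420.2 CPM in fed and 1451 to 3545 CPM in fasted livers, mostly from the apolipoprotein gene Apoa4, which liver also expresses, while Sis and Cdx1 were at 0 in all libraries. Of 4 adipocyte markers the lipid droplet gene Cidec, the 1 tested, rose, with a sum of 0.147 to 1.24 and 39.9 to 70.9 CPM. Nearly all of the fasted sum was Cidec, at 39.8 to 70.8 CPM. Adipoq had at most 5 counts and Plin1 at most 2 in any library, and Lep was at 0 in all libraries. Of 5 pancreatic markers the 1 tested fell, with sums of 7.53 to 13.3 and 2.69 to 5.45 CPM, and Cpa1 and Pnlip were at 0 in all libraries. The 5 kidney markers summed to at most 0.054 CPM, and Slc34a1 and Slc22a8 were among those at 0 in all libraries.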

How the data were processed

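Liver RNA from 12 mice was sequenced, and the deposited table holds expected counts per gene that the authors estimated with RSEM after trimming with Trimmomatic, on GRCm38, per the labels and the submitters' processing notes. Tool versions, the annotation release and the strand setting were not given in the sources used here. RSEM divides reads that fit several genes, so paralog counts are estimates. The estimates were rounded to whole counts. Of 48795 genes (1220 without a symbol), filterByExpr kept 13812, which were scaled by TMM and fitted with edgeR 4.0.16 (R 4.3.3, limma 3.58.1) by robust quasi-likelihood with 1 mean per group, without covariates. The labels give all mice the same batch. Groups came from the labels, 3 mice in each of 4 groups, and contrasts were fasted minus fed and Nts-/- minus Nts+/+, as labelled, within groups and as means, with their interaction, each adjusted over all tested genes. SEs are the log2 fold change divided by the square root of F. Intervals and counts at 0 cover counting error and the spread of these mice only.

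Members and lists were chosen with earlier results of these data known. All 9 members are named. From the lists, up to 4 genes per direction with the smallest p in the mean fasting comparison are named, with neighboring paralogs and the 3 genes most correlated with each of the 3 most variable members. Beside the rule, Slc47a1, Slc10a1, Slco1c1, Cyp2b10, Cyp7a1, Nr1i2 and Nfe2l2 were named after their values were seen. Transcript lengths came from GENCODE (GRCm39, 99.2% of tested genes matched) and upstream windows from RefSeq (GRCm38.p6). Alternatives were RLE and upper-quartile scaling, DESeq2 1.42.0, leaving the table unfiltered, a minimum of 10 counts per mouse, fits to the 6 mice of a contrast, removal of the trend with transcript length, other call rules, other lengths and each mouse left out. On data simulated for the fasting comparison of livers labelled Nts+/+ over 13611 genes, 100 of 100 genes changed 4-fold and 74 of 100 changed 2-fold were called, with 6 false calls among 13411 genes. The simulation gave every gene the same spread between mice, a coefficient of variation of 0.202, and changed only genes with a mean above 1 CPM. These counts therefore do not show how often a change would be called in genes of wider spread, such as Slco1a1 and Slc22a7. Values of 2 listed genes are not reported here by name, and 1 of them is not drawn, although both are in the list counts.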

Additional observations from a re-analysis of the deposited data

How the results depend on the processing

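No paired analysis was possible because the labels give every mouse its own number and name no litter or pair. Over 7 comparisons of 9 members, 414 values were recomputed under other settings, and 401 kept their direction and their side of the threshold. DESeq2 called 2 more, Slco1a1 in the fasting comparison of livers labelled Nts-/- (log2 -3.68, adjusted p = 0.00183) and Slc22a7 in the mean fasting comparison (log2 -1.68, adjusted p = 0.0147), and the cause was not tested. The other 11 values, none of them called, changed sign. These were Slco1b2 in the fasting comparison of livers labelled Nts+/+ without a count filter (log2 0.010), and Abcc3 in the genotype comparisons after removal of the length trend, in fed (-0.012) and fasted livers (0.011), and in their mean under upper-quartile scaling (0.00073) and with at least 10 counts per mouse (0.0044). The genotype difference in the fasting response became 0.0090 under RLE scaling, 0.0091 under upper-quartile scaling, 0.0090 with DESeq2, 0.015 with at least 10 counts per mouse and 0.16 after removal of the length trend for Abcc2, and 0.024 after that removal for Abcc3.

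Leaving out 1 mouse gave 540 values, of which 470 kept their direction and their side of the threshold, 9 lost their call (Slco1a1 in 2 and Abcc2 in 7), 1 gained it (Slc22a7, without mouse 319) and 60, none of them called, changed sign. The log2 differences with such a change ranged as follows. In the fasting comparisons they ran from -0.15 to 0.22 for Slco1b2 and from -0.16 to 0.0039 for Slco2b1 in livers labelled Nts+/+, and from -0.15 to 0.22 for Abcb1a in those labelled Nts-/-. Between genotypes in fed livers, they ran from -0.17 to 0.40 for Slco1a4, from -0.31 to 0.070 for Slco1b2, from -0.013 to 0.19 for Slco2b1, from -1.16 to 0.33 for Slc22a7, from -0.20 to 0.026 for Abcc2, from -0.075 to 0.14 for Abcc3 and from -0.24 to 0.015 for Abcb4. In fasted livers they ran from -0.084 to 0.21 for Slco1b2, from -0.10 to 0.086 for Abcc3, from -0.20 to 0.14 for Abcb1a and from -0.079 to 0.11 for Abcb4. In the mean over feeding they ran from -0.12 to 0.080 for Slco1b2, from -0.053 to 0.049 for Slco2b1, from -0.045 to 0.059 for Abcc3 and from -0.11 to 0.017 for Abcb4. For the genotype difference in the fasting response they ran from -0.15 to 0.46 for Slco1a4, from -1.02 to 0.55 for Slc22a7, from -0.10 to 0.13 for Abcc2 and from -0.15 to 0.071 for Abcc3.

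Members called in the mean fasting comparison numbered 3 with a fold of at least 2 required as well, and 3 to 5 with 1 mouse left out, the 3 being reached without mouse 265 or mouse 290. Counts over all genes fell to 911, 915 and 1082 in the fasting comparisons of livers labelled Nts+/+, of those labelled Nts-/- and of their mean when that fold was required. They ran from 1224 to 2418 and from 1358 to 2631 in the first and second of these with 1 mouse left out. They fell by over 1.5 times without mice 254, 257 or 282 in the first and without mice 277, 284 or 290 in the second. All fits with 1 mouse left out had 1 liver fewer in the contrast. Why only these mice moved the counts so far was not tested. For genotype, DESeq2 called 8 genes in fed livers, 4 in fasted livers, 16 in their mean and 3 for the difference in the fasting response, where edgeR called 0. Without a count filter 1 gene was called in fed livers and 1 in the mean, a fit to the 6 fasted mice called 1, and an adjusted p under 0.10 gave 1 in the mean. With 1 mouse left out, these counts ran from 0 to 2 in fed livers, from 0 to 4 in the mean and from 0 to 1 for the difference in the response, with mouse 323 or 319 left out in the cases above 0.

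Lengths of the coding sequence or of all merged exons kept Slco1b2 the most abundant member per kilobase in every group, at 2.36 to 5.23 times the next member, but moved the order of the others. The members with the fewest reads were Slco1a1, Slc22a7 and Abcb1a, with 46, 49 and 94 counts in their lowest libraries. Relative counting error is largest at such low counts. Slco1a1 and Slc22a7 also had the widest spread between mice of the same group among the members. The parts of depth and of this spread were not tested.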
